A study of Bos taurus with 60 samples.

Results

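The miRNAs bta-miR-33a and bta-miR-33b are encoded within the SREBP genes, and their read counts were followed in the livers of 60 beef steers. They were taken by name and are 2 of the 1030 known mature miRNAs counted in these libraries. Each has 1 precursor, so averaging over precursors left both counts as deposited. The libraries came from 20 Angus, 20 Charolais and 20 Kinsella Composite (KC) steers, with 1 small RNA library per steer. All steers had the same barley-based finishing diet with rumensin pellets, and by the study's methods the breeds differed in mean age at slaughter, so breed and age cannot be told apart. Angus and Charolais were purebred, and KC is a composite beef population. Residual feed intake (RFI) is the feed an animal eats beyond what its growth and body weight predict, so that low-RFI steers are the more efficient ones. In each breed, 6 steers were labelled low-RFI and 6 high-RFI, and 8 steers carried no RFI group. By the study's methods, all 20 steers of a breed came from the highest and lowest RFI values of a larger tested group. The 8 without a label are therefore also from these ends and not intermediate animals. The 12 labelled steers were selected further for extreme RFI and for consistent miRNA expression, so the spread within these groups may be narrower than in unselected steers. Steers also shared sires, with 7 sires in Angus, 5 in Charolais and 11 in KC, and are not fully independent replicates.

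SREBP-1 and SREBP-2 are transcription factors that switch on the genes of fatty acid and cholesterol synthesis. In mammals with both miRNAs, miR-33a lies in an intron of SREBF2, the gene of SREBP-2, and miR-33b in an intron of SREBF1, the gene of SREBP-1. Both are known to repress the cholesterol exporter ABCA1, genes of fatty acid oxidation such as CPT1A, and genes of insulin signalling such as IRS2, so that a host gene and its miRNA act on lipid balance together. In the RefSeq annotation of the cattle assembly ARS-UCD2.0, the span of SREBF2 holds MIR33A and the span of SREBF1 holds MIR33B, and no other gene span holds either. The counts were made on the build UMD3.1, so no coordinates are given.

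The mature sequences are shown because the 2 miRNAs share a seed, the stretch that recognises targets, and differ only in the bases behind it. They are as the study lists them, written 5′ to 3′, with the seed (bases 2 to 8) in capitals.
bta-miR-33a: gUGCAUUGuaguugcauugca
bta-miR-33b: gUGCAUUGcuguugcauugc
Aligned from their first base, the sequences matched at 18 of 20 positions. With bta-miR-33a as the reference and positions counted from 1 at the 5′ end, the substitutions were U9C and A10U, and bta-miR-33a is 1 base longer. Among the 588 mature sequences listed, no other miRNA carried this seed. The nearest other sequence had 8 mismatches to either of them over at least 18 aligned bases. The count tables give a number of reads for each miRNA and not the reads themselves. Whether the reads counted for bta-miR-33b carried its own middle bases could therefore not be examined. This limit applies to every level of bta-miR-33b and to its balance and correlation with bta-miR-33a.

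Levels are given as CPM, the count of a miRNA scaled to the known miRNA counts of its library after TMM normalisation. Library totals ran from 1930859 to 6759381 counts, highest in KC with a median of 5547018. A count of 3, used as the floor of detection, stood for 0.444 to 1.55 CPM depending on the library, relative to the library totals without TMM. In counts, both miRNAs were above this floor in each of the 60 steers. The 4 hepatocyte markers, bta-miR-122, bta-miR-192, bta-miR-148a and bta-miR-885, summed to between 286078 and 547689 CPM per steer, and none was at 0. Markers of other cell types were also present, with summed levels of 118662 to 390920 CPM for mesenchymal, 13684 to 20740 for endothelial, 3308 to 13873 for erythroid, 2674 to 4874 for leukocyte, 115 to 362 for biliary and 19.9 to 62.2 for muscle markers, and the ranges of the breeds overlapped in each list. In whole tissue, a lower level can come from fewer cells of a type or from less RNA per cell, and these cannot be told apart.

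Both members were of middle to low abundance in liver. bta-miR-33a was at 7.30 ± 2.17 CPM (SD, n = 60), with a lowest steer at 2.50, a median of 7.45 and a highest steer at 11.9 CPM. bta-miR-33b was at 37.8 ± 8.35 CPM (SD, n = 60), with a lowest steer at 20.2, a median of 36.8 and a highest steer at 58.1 CPM. The highest and lowest steers thus differed 4.76-fold for bta-miR-33a and 2.87-fold for bta-miR-33b. By mean level they ranked 225 and 140 of the 646 known miRNAs with at least 10 counts over all steers. The more abundant of the pair was bta-miR-33b in 60 of 60 steers.

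In raw counts, a library held 6 to 64 reads of bta-miR-33a and 49 to 318 reads of bta-miR-33b. The exact Poisson 95% interval of the lowest bta-miR-33a count, 6 reads, was 2.20 to 13.1 reads, and that of the highest, 64 reads, was 49.3 to 81.7. For the lowest bta-miR-33b count, 49 reads, it was 36.3 to 64.8. These intervals cover counting error only, since PCR-amplified reads are not independent molecules. Only 1 steer had fewer than 10 reads of bta-miR-33a. Around the counts expected from a common level and each library's total, bta-miR-33a varied 2.86 times as much as counting error alone would give, and bta-miR-33b 10.9 times. This ratio grows with the number of reads. Relative to the mean, the CPM of bta-miR-33b varied less, with a coefficient of variation of 22.1% against 29.8% for bta-miR-33a. The biological coefficient of variation that edgeR estimated within breeds was 0.228 for bta-miR-33a and 0.197 for bta-miR-33b, beside a median of 0.225 over the miRNAs tested. In each edgeR comparison given here, bta-miR-33a, with fewer reads, had the larger standard error.

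**Figure D1:**
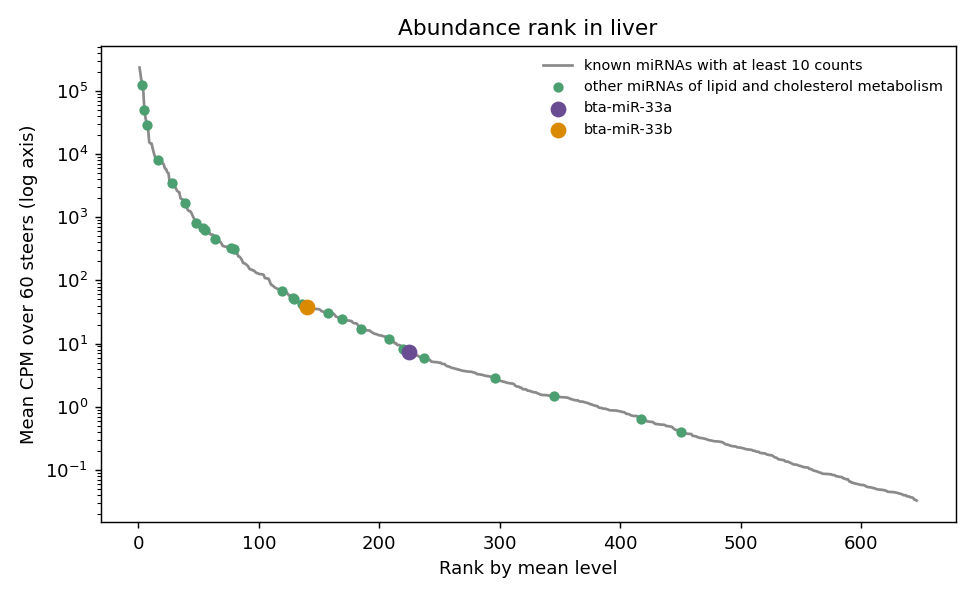
Mean CPM over 60 steers (log axis) of the 646 known miRNAs with at least 10 counts, against their rank. bta-miR-33b, at rank 140, and bta-miR-33a, at rank 225, stand far below the most abundant lipid miRNAs (green points), and 5 of those 26 lie below bta-miR-33a.

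Other miRNAs linked in mammals to cholesterol, fatty acid or insulin signalling give the scale. Of a list of 26, 16 were more abundant than bta-miR-33b, 5 lay between both members and 5 were below bta-miR-33a. bta-miR-148a, which represses the LDL receptor, averaged 125476 CPM, and bta-miR-122, the hepatocyte miRNA that sustains cholesterol synthesis, 8109 CPM. bta-miR-128, another regulator of ABCA1 and the LDL receptor, averaged 51.4 CPM, close to bta-miR-33b. These 3 levels are relative to the library totals, without TMM.

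Between breeds, bta-miR-33b was highest in Angus, and the breed means of each member differed by less than its SD over the Angus steers. The Angus steers had 42.1 ± 8.22 CPM of bta-miR-33b (SD, n = 20), between 31.3 and 58.1 with a median of 40.8. The Charolais steers had 34.5 ± 7.42 CPM (SD, n = 20), between 20.4 and 49.5 with a median of 33.3. The KC steers had 36.7 ± 7.84 CPM (SD, n = 20), between 20.2 and 48.5 with a median of 37.0. The 3 ranges overlapped widely, and 6 of 20 Charolais and 7 of 20 KC steers lay above the Angus median.

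In the edgeR fit of the 60 steers, the log2 fold change of bta-miR-33b in Charolais over Angus was -0.28 (standard error 0.096, 95% interval -0.47 to -0.09). Its unadjusted p by the quasi-likelihood test across all miRNAs was 0.00439, the 18th smallest of 425, but after Benjamini-Hochberg adjustment it was 0.101 and did not pass. There, 10 of 425 miRNAs, or 2.35%, were called at an adjusted p under 0.05. A permutation test of log2 CPM over the 40 steers, two-sided with 100000 resamples, gave a difference of -0.30 and p = 0.00339. With the steers of each sire averaged, a choice made after seeing the data, the exact permutation p over 5 Charolais and 7 Angus sires was 0.00253. The single-miRNA tests thus gave small p for a lower level in Charolais, while the test adjusted over all miRNAs did not call it. These permutation p are not adjusted over the members and breed pairs tested, and the test over steers treats steers that share a sire as independent.

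For KC over Angus the log2 fold change of bta-miR-33b was -0.22 (standard error 0.095, 95% interval -0.41 to -0.03), with an adjusted p of 0.122. In that comparison 56 miRNAs, or 13.2%, were called, and 27 without the miRNA and precursor pairs listed only for KC. The permutation p over steers was 0.0384 and, by the exact permutation over 11 KC and 7 Angus sires, 0.155. For KC over Charolais the log2 fold change was 0.07 (95% interval -0.12 to 0.26), with an adjusted p of 0.734 by edgeR. There, 70 miRNAs, or 16.5%, were called, and 42 without the pairs listed only for KC. The F test of any difference among the 3 breeds had an adjusted p of 0.0543 for bta-miR-33b, just outside the threshold that 83 of 425 miRNAs, or 19.5%, passed. In descending order of mean level, bta-miR-33b stood at Angus, KC, Charolais, and no neighbouring pair differed at an adjusted p under 0.05.

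bta-miR-33a stood in another order, KC, Charolais, Angus. KC steers had 7.86 ± 1.72 CPM (SD, n = 20), between 4.85 and 11.9 with a median of 7.84. Charolais steers had 7.15 ± 2.39 CPM (SD, n = 20), between 2.50 and 11.4 with a median of 7.14. Angus steers had 6.89 ± 2.35 CPM (SD, n = 20), between 3.11 and 10.8 with a median of 6.64. The groups overlapped over most of their range, although 15 of 20 KC steers lay above the Angus median. The log2 fold changes were 0.16 for KC over Angus (95% interval -0.11 to 0.43), 0.10 for KC over Charolais (-0.17 to 0.36) and 0.06 for Charolais over Angus (-0.21 to 0.34). Their adjusted p by edgeR were 0.492, 0.713 and 0.846, and that of the F test over breeds was 0.634. The permutation p over steers for KC over Angus was 0.0881, and over sires, with steers averaged, the exact permutation p was 0.0331. Under the processing alternatives, the log2 fold change ran from 0.17 to 0.39 for KC over Angus (adjusted p from 0.156 to 0.520 by edgeR or DESeq2) and from 0.11 to 0.29 for KC over Charolais. In folds, the 95% intervals of the 3 pairs reach from 0.865 to 1.35. They treat steers that share a sire as independent and may be too narrow, so larger differences in bta-miR-33a between breeds are not excluded.

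**Figure D2:**
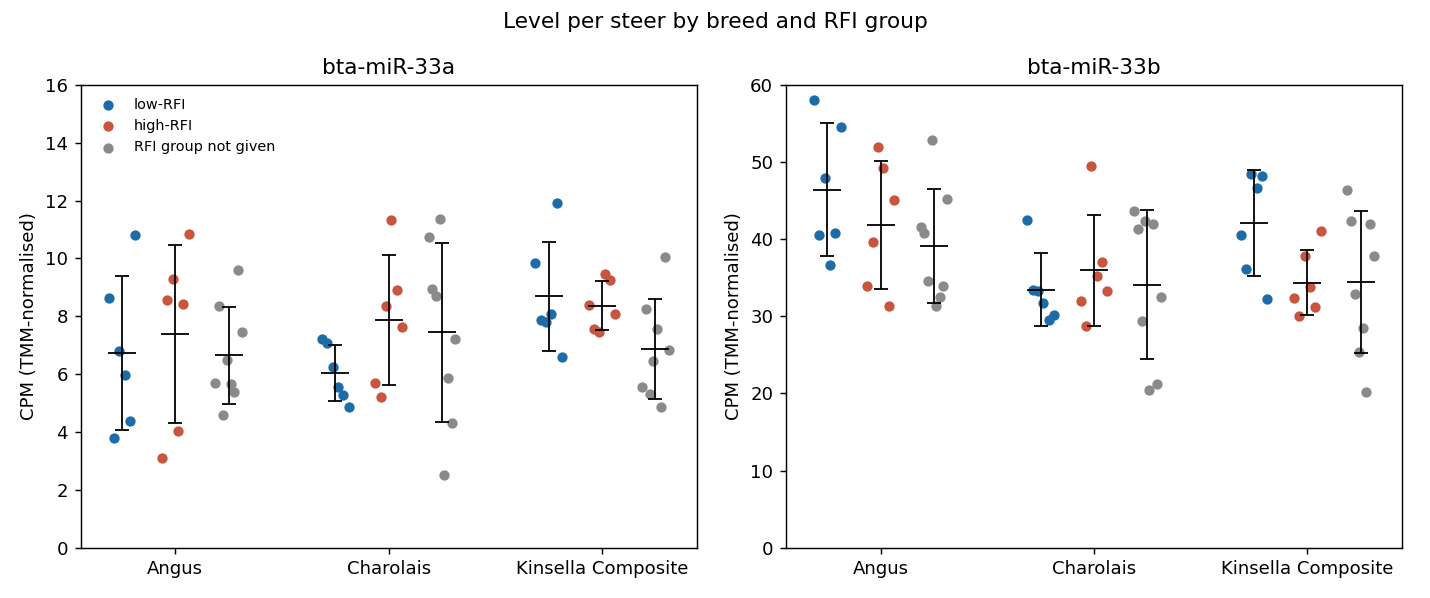
CPM of bta-miR-33a (left) and bta-miR-33b (right) in each steer by breed, coloured by RFI group, with bars for the mean ± SD of 6 or 8 steers. The RFI groups overlap within each breed, and the Angus steers reach the highest bta-miR-33b levels, up to 58.1 CPM.

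The balance between both members leaned most to bta-miR-33b in Angus. Charolais and KC lay close together below it, and only KC differed from Angus after adjustment. Of the counts of the pair, bta-miR-33b made up 85.9% ± 4.11 in Angus steers, 83.1% ± 3.42 in Charolais steers and 82.1% ± 3.14 in KC steers (SD, n = 20 per breed). The steers ranged from 78.0% to 92.4% in Angus, from 75.6% to 89.1% in Charolais and from 77.1% to 89.3% in KC. Only 3 of 20 Charolais and 3 of 20 KC steers lay above the Angus median. Pooled over steers, bta-miR-33b had 3052 of 3564 counts in Angus, or 85.6% (exact Clopper-Pearson 95% interval 84.4 to 86.8%). It had 2949 of 3567 counts in Charolais, or 82.7% (81.4 to 83.9%), and 3989 of 4831 in KC, or 82.6% (81.5 to 83.6%). These intervals cover counting error only and leave out the spread between steers, so breeds are compared over steers.

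The mean share in KC was 3.82 percentage points below that in Angus (two-sided permutation test over steers, p = 0.00225). Adjusted over the 6 share comparisons made here, 3 between breeds and 3 between RFI groups, this p was 0.0135. Over sires the difference was 5.05 points, with an exact permutation p of 0.000628. The share in Charolais was 2.89 points below that in Angus, with a permutation p of 0.0204 and an adjusted permutation p of 0.0611, which did not pass. Over sires, Charolais minus Angus was -3.79 points (exact permutation p = 0.0215). KC lay below Charolais by 0.93 points (permutation p = 0.375). Angus libraries were the shallowest, with a median total of 3720336 counts. With each library thinned to the lowest total, a choice made after seeing the data, KC minus Angus was -6.51 points (permutation p = 0.00038). Charolais minus Angus was then -4.21 points (permutation p = 0.00406). The thinning was a single random draw, which adds counting error. In counts, a steer had 3.1 to 12.2 reads of bta-miR-33b for each read of bta-miR-33a, with a median of 5.12.

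**Figure D3:**
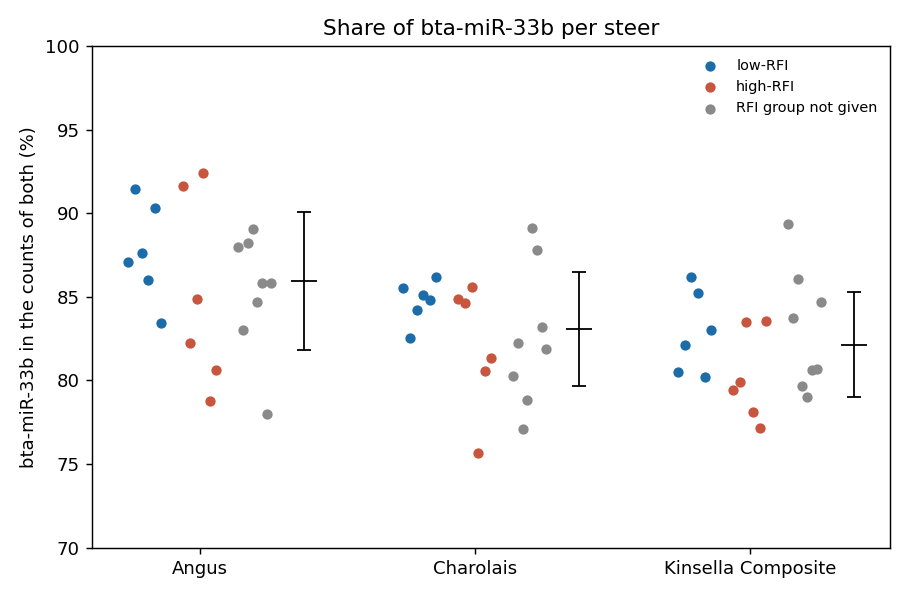
Share of bta-miR-33b in the counts of both members (%) for each steer, coloured by RFI group, with the mean ± SD of the 20 steers of each breed at the right of its points and an axis that starts at 70%. Angus steers averaged 85.9%, above Charolais with 83.1% and KC with 82.1%.

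Because both miRNAs carry the same seed, their summed level measures the pool that shares its targets. In Angus the sum was 49.0 ± 9.34 CPM, in Charolais 41.6 ± 9.21 CPM and in KC 44.6 ± 8.76 CPM (SD over 20 steers per breed). It ran from 22.9 to 66.7 CPM over the 60 steers, and most of it was bta-miR-33b.

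The comparison of low-RFI with high-RFI steers asks whether efficient and inefficient animals differ in these miRNAs. In the study's measurements, low-RFI steers also ate less on average, in Angus without passing its adjusted threshold. They were older at slaughter on average, most in KC, though no age difference passed that threshold. Intake and age cannot be told apart from the RFI label here. By the thresholds of the study's call rule, an unadjusted p under 0.05 with a fold change above 1.5, neither member was called in any breed. The p used here is that of the edgeR quasi-likelihood test, while the study reports likelihood-ratio tests. The rule called 9 of 373 miRNAs, or 2.41%, in Angus, 7 of 373, or 1.88%, in Charolais and 7 of 385, or 1.82%, in KC. With the likelihood-ratio test, the same thresholds called 10, 7 and 8. An unadjusted p under 0.05 alone was reached by 14 miRNAs (3.75%) in Angus, 19 (5.09%) in Charolais and 14 (3.64%) in KC.

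The widest RFI difference of bta-miR-33b was in KC. The low-RFI KC steers had 42.1 ± 6.86 CPM (SD, n = 6), with a lowest value of 32.2, a median of 43.6 and a highest of 48.5. The high-RFI KC steers had 34.4 ± 4.24 CPM (SD, n = 6), with a lowest value of 30.01, a median of 33.1 and a highest of 41.1. The groups overlapped: 3 low-RFI steers were above every high-RFI steer, and 2 high-RFI steers were below every low-RFI steer. The difference of mean log2 CPM was 0.29, with an exact two-sided permutation p of 0.0519 over the 924 relabelings, whose smallest possible p is 0.00216. Leaving out each steer in turn, this exact permutation p ran from 0.0195 to 0.0996. In edgeR the log2 fold change was 0.30 (standard error 0.13, 95% interval 0.03 to 0.57), a 1.23-fold higher level. The unadjusted p across all miRNAs was 0.0329, the 11th smallest of 385, and the adjusted p by edgeR was 0.978. Thinned to equal depth in a single random draw, which adds counting error, the difference of mean log2 CPM was 0.13 (exact permutation p = 0.418).

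In Angus, low-RFI steers had 46.4 ± 8.57 CPM of bta-miR-33b (SD, n = 6; lowest 36.6, median 44.4, highest 58.1). High-RFI steers had 41.9 ± 8.31 CPM (SD, n = 6; lowest 31.3, median 42.4, highest 52.0). The groups overlapped over most of their range. The log2 difference was 0.16 with an exact permutation p of 0.348, and the 95% interval of the edgeR fold change was 0.915 to 1.42. In Charolais, low-RFI steers had 33.5 ± 4.73 CPM (SD, n = 6; lowest 29.5, median 32.5, highest 42.5) and high-RFI steers 35.9 ± 7.23 CPM (SD, n = 6; lowest 28.7, median 34.3, highest 49.5). Here the log2 difference was -0.08 with an exact permutation p of 0.539, and the 95% interval of the edgeR log2 fold change was -0.44 to 0.21. In both breeds the difference was smaller than the spread within groups.

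For bta-miR-33a the widest RFI difference was in Charolais, in the direction of lower levels in low-RFI steers. Low-RFI Charolais steers had 6.04 ± 0.97 CPM (SD, n = 6; lowest 4.86, median 5.90, highest 7.22). High-RFI Charolais steers had 7.86 ± 2.25 CPM (SD, n = 6; lowest 5.22, median 8.002, highest 11.3). The groups overlapped, with 0 of 6 low-RFI steers above the median of the high-RFI group and 2 high-RFI steers below the median of the low-RFI group. The log2 fold change was -0.40 (standard error 0.21, 95% interval -0.85 to 0.04), with an unadjusted p of 0.0741 across all miRNAs and an adjusted p of 0.905 by edgeR. The exact two-sided permutation p was 0.104. Thinned to equal depth, the log2 fold change was -0.24.

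In Angus, bta-miR-33a was at 6.73 ± 2.65 CPM in low-RFI steers (SD, n = 6; lowest 3.80, median 6.38, highest 10.8). In high-RFI Angus steers it was at 7.38 ± 3.08 CPM (SD, n = 6; lowest 3.11, median 8.50, highest 10.8). The log2 fold change was -0.14 (95% interval -0.77 to 0.50), with an adjusted p of 0.970 by edgeR. Its sign turned in 2 alternatives, to 0.035 at equal depth and to 0.62 with sire as a block. The low-RFI group of KC had 8.69 ± 1.90 CPM (SD, n = 6; lowest 6.60, median 7.98, highest 11.9) and the high-RFI group 8.36 ± 0.844 CPM (SD, n = 6; lowest 7.46, median 8.23, highest 9.46). In KC the log2 fold change was 0.06 (95% interval -0.26 to 0.38), with an adjusted p of 0.995 by edgeR. In both breeds the groups overlapped over most of their range. The interval in Angus, 0.585 to 1.41 in folds, is wide, and a 1.5-fold lower level in low-RFI Angus steers lies inside it.

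The steers without an RFI group, 8 per breed and also from the high and low ends of RFI, covered similar ranges. For bta-miR-33a they had 6.65 ± 1.69 CPM in Angus, 7.45 ± 3.09 CPM in Charolais and 6.86 ± 1.73 CPM in KC, with medians of 6.09, 7.95 and 6.66 (SD, n = 8 per breed). For bta-miR-33b they had 39.1 ± 7.43 CPM in Angus, 34.1 ± 9.66 CPM in Charolais and 34.4 ± 9.23 CPM in KC, with medians of 37.6, 36.9 and 35.4. The lowest steer of all for each member was among them, a Charolais steer for bta-miR-33a and a KC steer for bta-miR-33b.

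Over the 36 labelled steers, with breed as a covariate, the log2 fold change of low-RFI over high-RFI was -0.18 for bta-miR-33a (95% interval -0.45 to 0.09) and 0.09 for bta-miR-33b (-0.08 to 0.27). The adjusted p was 0.978 for both by edgeR. The study's call rule took 3 of 426 miRNAs, or 0.704%, in this fit. The intervals in folds were 0.733 to 1.07 and 0.948 to 1.20, so that a common 1.5-fold difference in either direction lies outside both. Steers that share a sire are treated as independent in these intervals, which may therefore be too narrow. Whether the RFI difference itself varied with breed was tested as an interaction, with an unadjusted p across all miRNAs of 0.373 for bta-miR-33a and 0.123 for bta-miR-33b. The interaction was called in 0% of miRNAs, 0 of 426 by the edgeR quasi-likelihood test, and 16 had an unadjusted p under 0.05. The likelihood-ratio test called 1.

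**Figure D4:**
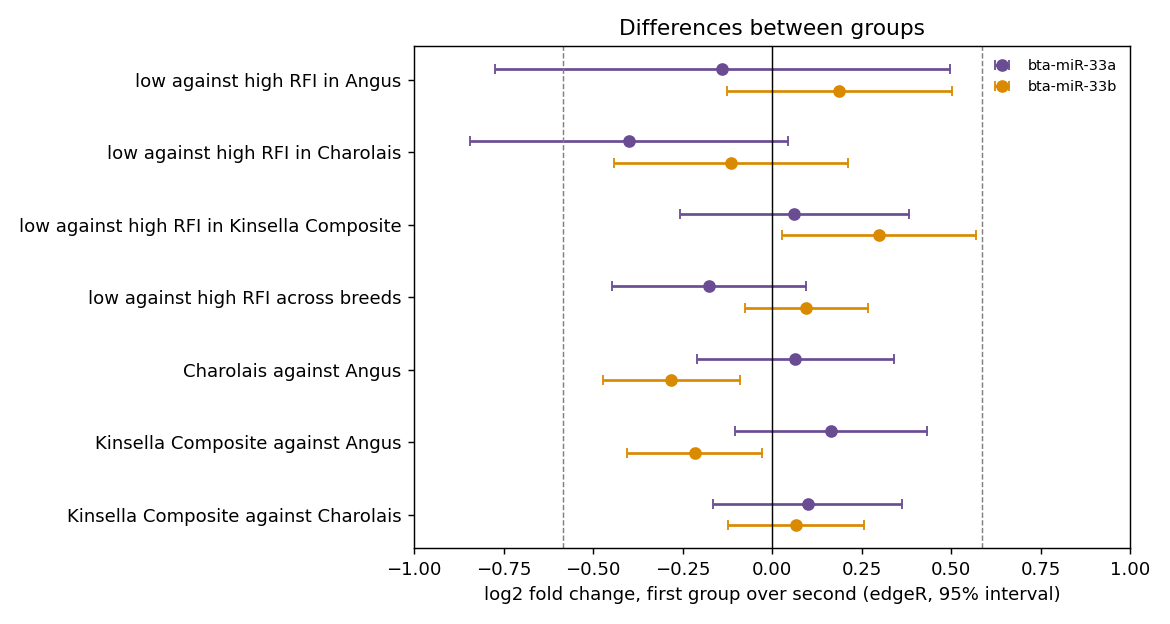
log2 fold changes of bta-miR-33a and bta-miR-33b in each comparison, first-named group over second, with 95% intervals from edgeR and dashed lines at a 1.5-fold change. The intervals of bta-miR-33b exclude 0 for Charolais over Angus, KC over Angus and low over high RFI in KC, before any adjustment over miRNAs.

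The share of bta-miR-33b was higher on average in low-RFI than in high-RFI steers of each breed, within the spread of the steers. In Angus it was 87.6% ± 2.91 against 85.1% ± 5.72, in Charolais 84.7% ± 1.25 against 82.1% ± 3.76, and in KC 82.9% ± 2.45 against 80.3% ± 2.71 (SD over 6 steers per group). The differences were 2.56, 2.62 and 2.58 percentage points, with exact two-sided permutation p of 0.342, 0.115 and 0.119. Thinned to the lowest total in the same single draw, they were 1.39, 0.21 and 4.28 points. All 6 low-RFI KC steers, and 5 of 6 in Angus and in Charolais, lay above the high-RFI median of their breed.

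Steers with more bta-miR-33a tended to have more bta-miR-33b. Over the 60 steers, with the mean of each breed subtracted, Pearson's r of log2 CPM was 0.53 and Spearman's rho 0.49 (permutation p of 2e-05 and 0.0001, 100000 resamples). Adjusted over the 12 relations computed, these permutation p were 0.00024 and 0.0012. Without the 2 steers farthest from the median, r was 0.45. By breed, r and rho were 0.77 and 0.74 in Charolais (permutation p of 9e-05 and 0.0004), 0.49 and 0.42 in KC (permutation p of 0.0264 and 0.0635), and 0.34 and 0.34 in Angus (permutation p of 0.144 and 0.140), with 20 steers each. Their permutation p adjusted over the 12 relations were 0.00054 and 0.0024 in Charolais, 0.106 and 0.254 in KC, and 0.385 and 0.356 in Angus. Leaving out the 2 farthest steers lowered r to 0.57 in Charolais, 0.15 in KC and 0.27 in Angus, with the largest fall in KC. Leaving out the farthest steers also narrows the range, which lowers r, and leaving out other steers was not tested. Whether the breeds differ in this relation was not tested. Both values of a steer come from 1 library and share its total. Whether reads of either member were counted for the other could not be examined, which limits this relation.

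**Figure D5:**
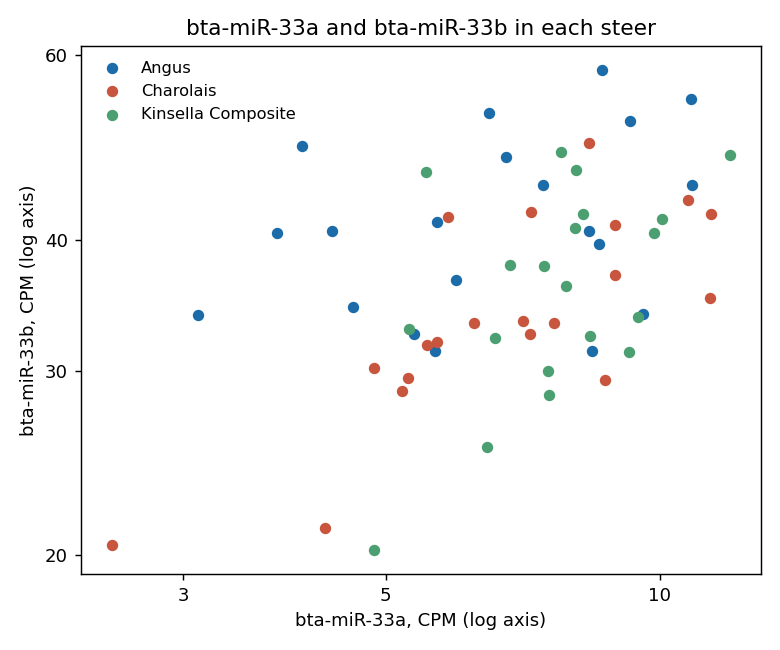
CPM of bta-miR-33b against CPM of bta-miR-33a in each of the 60 steers (both axes log), coloured by breed. The points of Charolais lie closest to a rising line, and the steer lowest in bta-miR-33a, a Charolais steer at 2.50 CPM, is also near the lowest in bta-miR-33b at 20.4 CPM.

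No relation between a member and the depth of its library passed the permutation test. With breed means subtracted, Pearson's r and Spearman's rho with the log2 total were 0.16 and 0.06 for bta-miR-33a (permutation p of 0.234 for r). For bta-miR-33b they were -0.04 and -0.06 (permutation p of 0.775 for r). Within breeds the largest r in size was -0.33, for bta-miR-33b in Angus (permutation p = 0.161, 0.385 adjusted over the 12 relations).

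Among 371 other miRNAs that reached 1 CPM in 30 steers or more, the one whose level followed bta-miR-33a most closely over the 60 steers was bta-miR-33b, with rho 0.49. The next were bta-miR-32 with 0.39, bta-let-7b with 0.35, bta-miR-148a with 0.34 and bta-miR-331-3p with 0.33. The median rho over the 371 was 0.02. For bta-miR-33b the closest was bta-miR-93, a member of the miR-17 family, with rho 0.59. bta-miR-339b followed with 0.55, bta-miR-210, a miRNA of the hypoxia response, with 0.54, bta-miR-32 with 0.52 and bta-miR-33a with 0.49, where the median was 0.0016. These are descriptions of 1 set of libraries with breed means subtracted. The place of each member in the other's list carries the limit on the identity of reads given beside the sequences. bta-miR-32 was the only other miRNA among the closest 5 of both members. With bta-miR-33b it had a rho of 0.38 in the Angus, 0.68 in the Charolais and 0.44 in the KC steers, where bta-miR-93 had 0.48, 0.75 and 0.47.

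The sequences of these neighbours, with seeds in capitals as above, are shown because none of them shares the seed of the miR-33 pair.
bta-miR-32: uAUUGCACaugacuaaguugcau
bta-miR-93: cAAAGUGCuguucgugcaggua
bta-let-7b: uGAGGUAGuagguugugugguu
bta-miR-331-3p: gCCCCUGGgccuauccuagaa
bta-miR-339b: uCCCUGUCcuccaggagcuc
bta-miR-210: aCUGUGCGugugacagcggcuga
bta-miR-148a: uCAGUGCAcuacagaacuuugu

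Levels also varied between half-sib families, which are described here without a test. In Angus, 5 steers of a single sire had 5.17 ± 1.34 CPM of bta-miR-33a against 7.47 ± 2.35 in the other 15, and 6 steers of another sire had 8.37 ± 1.87 (SD). In Charolais, 8 steers of a single sire had 8.28 ± 2.18 CPM of bta-miR-33a and 37.8 ± 7.58 CPM of bta-miR-33b, while 4 steers of another had 5.41 ± 1.26 and 28.4 ± 4.93 CPM (SD). In KC, the 8 steers of the largest family had 7.04 ± 1.14 CPM of bta-miR-33a and 35.0 ± 7.98 CPM of bta-miR-33b, against 8.40 ± 1.86 and 37.8 ± 7.87 CPM in the other 12 (SD). That Charolais sire with 8 steers gave 4 of the 6 high-RFI but only 1 of the 6 low-RFI steers. In KC, the family with 8 steers gave 3 of the 6 high-RFI and 1 of the 6 low-RFI steers. In both breeds the family and the RFI group therefore partly coincide. With sire as a block in edgeR, the log2 fold change of bta-miR-33a in Charolais was -0.02 (adjusted p = 0.991), resting on the 4 high-RFI steers and the 1 low-RFI steer of this family. For bta-miR-33b in KC it was 0.48 (adjusted p = 0.968), resting on 3 high-RFI steers and 1 low-RFI steer.

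The 26 other lipid miRNAs were compared in the same fits. Within breeds, 24 of them were tested, and 0 were called in Angus, 0 in Charolais and 1 in KC, where the rule called 2.41%, 1.88% and 1.82% of all miRNAs tested. The call in KC was bta-miR-223, which represses cholesterol synthesis genes and is also abundant in myeloid cells, where the low-RFI group had 41.5 ± 9.85 CPM and the high-RFI group 25.8 ± 7.47 CPM (SD over 6 steers). Its log2 fold change was 0.69 (standard error 0.21), with an adjusted p of 0.647 by edgeR. The 4 leukocyte markers, of which bta-miR-223 is 1, were all detected and summed to between 3704 and 4874 CPM in the low-RFI and between 3467 and 3940 CPM in the high-RFI group of KC, and their part in this difference was not tested. The list's median log2 fold change came to 0.04 for Angus, -0.02 for Charolais and 0.01 for KC, beside 0.01, 0.0028 and 0.03 over all miRNAs tested. Over the 36 steers 0 of 25 were called, with a median of -0.02 beside -0.01 over all.

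Between breeds, 25 lipid miRNAs were tested. For Charolais over Angus, 1 was called higher and 1 lower, for KC over Angus 3 were lower, and for KC over Charolais 1 was lower. Over all miRNAs tested, 2.35%, 13.2% and 16.5% were called in these comparisons. Leaving out precursors listed only for KC lowered the calls from 56 to 27 for KC over Angus and from 70 to 42 for KC over Charolais. For Charolais over Angus, calls fell from 10 to 4 at equal depth and to 2 with the 36 labelled steers. Whether the lipid miRNAs named next stayed called under these settings was not examined. bta-miR-128 was lower in both Charolais and KC than in Angus, at 46.9 ± 8.92, 48.2 ± 7.98 and 58.1 ± 9.96 CPM (SD, n = 20 each). Relative to Angus, the log2 fold change was -0.31 in Charolais (adjusted p = 0.0296 by edgeR) and -0.29 in KC (adjusted p = 0.0118). Both values share the Angus steers. bta-miR-182, a miRNA whose cluster is induced by SREBP-2, was highest in Charolais, at 538 ± 99.1 CPM against 387 ± 134 in Angus and 416 ± 126 in KC (SD, n = 20 each). Its adjusted p by edgeR was 0.0296 for Charolais over Angus and 0.0206 for KC over Charolais. In KC over Angus, the log2 fold change of bta-miR-107, linked to insulin sensitivity, was -0.14 (adjusted p = 0.0117 by edgeR), and that of bta-miR-370, which is reported to target CPT1A, was -0.67 (adjusted p = 0.0137). The list's median was -0.01, 0.02 and -0.02 in the 3 pairs, beside 0.0028, -0.01 and -0.03 over all miRNAs tested.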

How the data were processed

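Small RNA of 60 steer livers was sequenced with 1 library per steer. The deposited values are raw read counts per pair of mature miRNA and precursor. As the submitters' processing notes and the methods give them, the authors demultiplexed with bcl2fastq 2.17.1.14, checked reads with FastQC 0.11.7, trimmed with cutadapt 1.16, kept reads by length, removed reads of other small RNAs, aligned with Bowtie 1.1.1 to UMD3.1 and counted with miRDeep2, without normalisation.

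Counts of a miRNA with several precursors were averaged and rounded. The KC averages included 52 miRNA and precursor pairs listed only for KC, so some miRNAs were averaged over different precursors in KC than in the other breeds. Fits used edgeR 4.0.16 (limma 3.58.1, R 4.3.3) with TMM and quasi-likelihood tests, on miRNAs with at least 1 CPM in 6 of 12, 6 of 36 or 10 of 60 steers. Adjusted p-values follow Benjamini and Hochberg over all miRNAs tested. Exact permutation tests over steers used log2 CPM with a prior count of 0.5. DESeq2 1.42.0 served for alternatives, and Python 3.11.15 for the rest. The edgeR fits were also checked on simulated counts with known changes. Totals of 1930859 to 6759381 counts set the precision.

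Groups follow the breed and RFI labels. The members, the list of lipid miRNAs and the marker lists were chosen with earlier results of these data known. Named are the 2 members, lipid miRNAs called in a comparison, and the 5 miRNAs most like each member. Mature sequences are the study's, and gene names come from the ARS-UCD2.0 annotation. Alternatives covered the test, normalisation, filter, precursors, depth, sire and leaving out each steer. Thinning to equal depth was a single random draw that discarded reads and so added counting error. How far this error moved the thinned values was not tested.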

Additional observations from a re-analysis of the deposited data

Results flagged for a closer look

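In the low-RFI Charolais group, replicate 1 stood apart in bta-miR-33b at 42.5 CPM, where the next steer had 33.4 CPM. Its gap to that steer was 0.697 of the range of the 6 steers, above Dixon's 95% critical value for 6 values. It was the only case in 27 groups of values tested, and chance alone marks about 1 in 20. Without this steer the difference of mean log2 CPM of bta-miR-33b, low-RFI minus high-RFI Charolais steers, was -0.16, against -0.08 with it.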

How the results depend on the processing

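With sire family as a block, the comparison of RFI groups rests on 2 low-RFI steers in Angus, 1 in Charolais and 1 in KC, the lone steers being assumed to vary like the rest. In this fit the log2 fold change of low over high RFI was 0.62 for bta-miR-33a in Angus (adjusted p = 0.898 by edgeR) and 0.29 for bta-miR-33b in Charolais (adjusted p = 0.712), both of opposite sign to the values above. The lone Charolais low-RFI steer is the one at 42.5 CPM that stood apart in bta-miR-33b. Over the alternatives the adjusted p ran from 0.898 to 0.992 and from 0.712 to 0.999. With the same block it was 0.46 for bta-miR-33b in Angus and 0.48 in KC, and -0.02 for bta-miR-33a in Charolais. Thinned to equal depth in a single random draw, bta-miR-33a turned to 0.035 in Angus and -0.16 in KC, and bta-miR-33b in KC was 0.13. With only the 36 labelled steers, bta-miR-33a in Charolais over Angus turned to -0.014, and the share of bta-miR-33b in Charolais minus Angus was -2.95 points (permutation p = 0.0728). With the steers of each sire averaged, KC over Angus was 0.38 for bta-miR-33a (exact permutation p = 0.0331) and -0.21 for bta-miR-33b (exact permutation p = 0.155) in log2 CPM. The cause of these shifts was not tested. The fits on the share over 36 steers, at equal depth and over sires, and on levels over sires, were chosen after seeing the data. In the other 122 results under an alternative, direction and side of the threshold were as above.

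Leaving out each steer in turn, the RFI log2 change of bta-miR-33a in KC ran from -0.055, without low-RFI replicate 5, to 0.091. No other RFI comparison and no share difference changed sign. Levels between breeds were not refitted in this way. The RFI change ran from -0.33 to -0.00023 for bta-miR-33a and from 0.08 to 0.25 for bta-miR-33b in Angus. In Charolais it ran from -0.49 to -0.26 and from -0.16 to -0.01. For bta-miR-33b in KC it ran from 0.24 to 0.35, where the exact permutation p ran from 0.0195 to 0.0996. The edgeR fold change is used here for bta-miR-33a and the difference of mean log2 CPM for bta-miR-33b. KC minus Angus in the share of bta-miR-33b stayed between -4.23 and -3.48 points, and Charolais minus Angus between -3.30 and -2.49 points.

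The numbers of called miRNAs moved more. Without a filter on low counts the study's rule called 20 in Angus, 18 in Charolais, 15 in KC and 20 over the 36 steers, and thinning gave 6 there. With the sire block, where each of these breeds has 1 low-RFI steer left to compare, it called 48 in Charolais and 16 in KC. Charolais over Angus had 4 calls when thinned and 2 with the 36 steers. KC over Angus had 27 without the miRNA and precursor pairs listed only for KC and 24 with the 36 steers, and KC over Charolais had 42 without those pairs. The labels number the steers within a breed, which pairs none across groups, so the sire block was the only block fitted. Libraries held 6 to 64 counts of bta-miR-33a, which limits the precision of its levels.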
